A study of Mus musculus with 6 samples.

Results

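In all, 10 genes that encode immediate early transcripts and AP-1 subunits were examined across all libraries of the series: Fos, Fosb, Jun, Junb, Jund, Atf3, Egr1, Ier2, Dusp1 and Zfp36. They were chosen by name, with earlier results of these data known, and make up 10 of the 53618 named rows of the gene table. The 10 rows were found under these symbols, and 9 of them were among the 12298 genes tested. Atf3 had too few reads to be tested.

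The study performed bulk RNA-seq on Usp18+/f AE9a leukemia cells with a tamoxifen-activated Cre, taken from the spleen of transplanted mice by a GFP+Lin-c-Kit+ sort. The oncogene AE9a, a shortened form of the AML1-ETO fusion, causes acute myeloid leukemia in mice, and leukemia cells are marked by GFP. The question asked by the comparison was how the transcripts of established leukemia change once one Usp18 allele is depleted. Usp18 encodes a protease that restrains interferon signaling. The oil group (Usp18+/f) held 3 libraries from mice that received oil, and the tamoxifen group held 3 libraries from mice that received tamoxifen to give Usp18+/Δ cells. Cells were sorted 3 days after the first injection. Both groups carried the AE9a oncogene, the floxed allele and the Cre transgene, whose recombinase is expressed in all tissues and activated by tamoxifen. The oil group received no tamoxifen, so the drug and the deletion cannot be told apart in this design. Recipients were C57BL/6 mice of both sexes, 8 to 12 weeks old.

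Immediate early genes are transcribed within minutes of a signal such as a growth factor, a cytokine or stress, tissue handling included, without new protein synthesis. JUN family proteins pair with each other or with FOS family proteins through leucine zippers to form AP-1, which binds DNA and controls growth, differentiation and stress responses of blood cells, among others. Several genes of the same wave close the loop. DUSP1 removes phosphate from MAP kinases, and ZFP36 (tristetraprolin) binds AU-rich elements in mRNAs and promotes their decay.

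The start of these genes carries some of the elements through which signals reach them. To show these elements, the 150 bases before the annotated start of 5 members are given from the RefSeq table (GRCm38.p6), written 5′ to 3′ on the strand of the gene. They are Fos (chr12:85473740-85473889, plus strand), Jun (chr4:95052223-95052372, minus strand), Junb (chr8:84978749-84978898, minus strand), Dusp1 (chr17:26508473-26508622, minus strand) and Zfp36 (chr7:28379229-28379378, minus strand). Capitals mark the cAMP response element core TGACG or the whole element TGACGTCA, the TGACATCA element in Jun, the TATA box TATAAA in Fos and the CArG box in Zfp36, to which serum response factor binds.
Fos: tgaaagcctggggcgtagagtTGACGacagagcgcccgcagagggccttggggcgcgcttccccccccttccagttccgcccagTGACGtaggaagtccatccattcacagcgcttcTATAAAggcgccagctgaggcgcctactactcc
Jun: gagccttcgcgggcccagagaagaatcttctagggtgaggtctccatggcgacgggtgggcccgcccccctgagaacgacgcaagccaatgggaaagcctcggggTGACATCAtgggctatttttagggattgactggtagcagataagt
Junb: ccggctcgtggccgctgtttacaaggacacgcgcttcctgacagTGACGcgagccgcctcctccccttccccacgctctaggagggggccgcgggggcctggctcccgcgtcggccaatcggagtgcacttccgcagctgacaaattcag
Dusp1: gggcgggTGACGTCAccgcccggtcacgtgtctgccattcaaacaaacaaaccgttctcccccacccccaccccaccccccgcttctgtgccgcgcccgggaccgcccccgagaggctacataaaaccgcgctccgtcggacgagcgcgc
Zfp36: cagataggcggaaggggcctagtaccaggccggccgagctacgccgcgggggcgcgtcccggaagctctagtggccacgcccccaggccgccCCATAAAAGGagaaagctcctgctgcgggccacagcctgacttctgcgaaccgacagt

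Motifs were searched on both strands of the RefSeq windows, which run from 250 bases before the start to 50 after it. Windows were found for 8 of the 10 members among 32851 promoters. The core TGACG was present in 5 of these 8 windows (Fos, Fosb, Junb, Dusp1 and Atf3) and in 20.8% of all promoters. In Fos it stood at positions -129 and -66 from the start, with TATAAA at position -33. The whole element TGACGTCA, which contains the core, was found in Dusp1 alone of the 8 and in 1.79% of all promoters. TGACATCA was found in Jun alone of the 8, at position -45, and in 3.62% of all promoters. TATAAA was present in 2 of 8 (Fos and Junb) against 13.6% of all. In Junb it stood at the annotated start itself and not before it, unlike in Fos. The CArG box was present in 1 of 8 (Zfp36, at position -58) against 1.63% of all, and the AP-1 site TGANTCA in 0 of 8 against 7.81%. These matches describe letters in a window and not binding. Elements outside the window were not searched, so a gene without a match here may carry one further away.

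The transcripts of 7 of the 10 members were shorter than the median tested coding gene, and those of Fosb, Jun and Egr1 were longer. The longest coding transcript of each had a median length of 2049 bases (range 1522 to 4484), against 3083 over 10785 tested coding genes. The median exon number was 2 against 9, and Jun, Junb, Jund and Ier2 had a single exon, a structure found in 2.66% of the tested coding genes. The AU-rich pentamer ATTTA occurred at least once in the 3′ untranslated region of 9 of 10 members, against 67.8% of the tested coding genes. It occurred 3 or more times in 5 of 10 members (Fos, Jun and Dusp1 with 4 each, Atf3 and Zfp36 with 3 each), against 36.6%. GC content of the transcripts ran from 51.9% to 67.1%, with a median of 55.8% against 50.3%.

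Some facts of the libraries bear on every value below. Values are normalized counts, that is, the reads of a gene scaled by the library's size factor, and the libraries held 19172471 to 23785143 reads. Tamoxifen 1 was the shallowest, and its mitochondrial share of reads was 0.00923%, against 1.01% to 1.56% in the other 5. In that library the deviation of a gene from its mean in the other 5 followed GC content: its median (log2) was -1.99 for transcripts of 40% GC or less and 1.33 above 64%. For this reason the members' differences are given with and without tamoxifen 1. Usp18, the targeted gene, had 217, 214 and 176 normalized counts in the oil libraries and 477, 329 and 284 in the tamoxifen libraries. The values were thus higher where the labels give a deletion (log2 difference 0.81, limma adjusted p = 0.666). A count over the whole gene does not show from which allele the reads came, so it cannot check the deletion or the labels. Groups are those of the labels. Kit, the receptor of the sort gate, was high in all 6 libraries, at 4687 to 10976 normalized counts. Ptprc, which encodes the leukocyte antigen CD45, was close to absent, at 0.898 to 8.08.

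Ranked per kilobase of transcript in the oil libraries, Ier2 (mean 1539 normalized counts per kb, range 1351 to 1693) and Junb (1324, 1065 to 1629) were the most abundant members, and their ranges overlapped. Jund followed at 402 (390 to 421), then Fosb at 247 (185 to 329), and these ranges were separate from each other and from those above. Dusp1 (162.5, 149 to 182), Zfp36 (162.3, 132 to 214) and Jun (133, 101 to 161) had overlapping ranges, and that of Zfp36 also overlapped Fosb. Fos (109, range 104 to 115) lay inside the range of Jun. Egr1 was lower, at 56.2 (39.5 to 69.3). Atf3 was at 0.156, which stands for 1 read in 1 library.

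Fos (chr12:85473890-85477273, plus strand; gene positions are those of GENCODE vM21, GRCm38) encodes the founding FOS subunit, which binds DNA only as a dimer with a JUN protein. Its normalized counts were 220, 231 and 241 in the oil libraries and 553, 187 and 129 in the tamoxifen libraries. The oil libraries lay within a narrow band. Tamoxifen 1 was above the band and tamoxifen 2 and 3 were below it, so the groups overlapped. Oil averaged 230.7 ± 10.7 (SD, n = 3) and tamoxifen 289.8 ± 230.1 (SD, n = 3). The log2 difference, tamoxifen minus oil on the log2(value + 1) scale used throughout, was 0.04 (SE 0.52, 95% interval -1.19 to 1.28, limma adjusted p = 0.970). Without tamoxifen 1 it was -0.57 (SE 0.18, interval -0.96 to -0.17, adjusted p = 0.250), so a single library set its sign.

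Fosb (chr7:19302696-19310051, minus strand) encodes a second FOS family subunit. It had 702, 1245 and 853 normalized counts in oil and 2079, 1041 and 531 in tamoxifen, with group means of 933 ± 280 in oil and 1217 ± 789 in tamoxifen (SD, n = 3 each). Tamoxifen 1 was the highest library and tamoxifen 3 the lowest. The log2 difference was 0.21 (SE 0.50, adjusted p = 0.835), and without tamoxifen 1 it was -0.29 (SE 0.28, adjusted p = 0.731). After a correction for GC content it was 0.0050. Its values in tamoxifen 2 and 3 alone differed 1.96-fold.

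Jun (chr4:95049034-95052222, minus strand) encodes the founding JUN subunit, the main target of the JNK kinases that gave them their name. It had 323, 436 and 513 normalized counts in oil and 1270, 395 and 215 in tamoxifen. The pattern was that of Fos and Fosb, with tamoxifen 1 highest and tamoxifen 3 lowest. The group means were 424 ± 95.2 in oil and 627 ± 565 in tamoxifen (SD, n = 3 each). Jun differed by 0.19 on the log2 scale (SE 0.62, 95% interval -1.30 to 1.68, adjusted p = 0.879), the widest interval among the 9 tested members. Without tamoxifen 1 it was -0.51 (SE 0.26, adjusted p = 0.463). The antisense gene Junos had 0.929 to 5.11 normalized counts.

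Junb (chr8:84974484-84978718, minus strand) encodes a JUN subunit known for restraining the growth of myeloid progenitors. Its normalized counts were 1927, 2946 and 2312 in oil and 9381, 2875 and 3174 in tamoxifen. Tamoxifen 1 was 2.96 times the highest other library. Tamoxifen 3 was also above all oil libraries, while tamoxifen 2 lay inside their range. The group means were 2395 ± 515 in oil and 5143 ± 3673 in tamoxifen (SD, n = 3 each). Junb had a log2 difference of 0.90 (SE 0.46, 95% interval -0.21 to 2.01, adjusted p = 0.666), the largest among the 9 tested members in this fit. Without tamoxifen 1 it was 0.36 (SE 0.15, interval 0.019 to 0.69, adjusted p = 0.391), and after a correction for GC content it was 0.50. Junb overlaps Prdx2, which lies on the opposite strand and had 27555 normalized counts in tamoxifen 1 and 14176 to 19451 in the other libraries. Whether reads were counted by strand is not given in the sources used here, so reads of this pair may not have been separated.

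Jund (chr8:70698949-70700616, plus strand) encodes the JUN subunit that is expressed more constantly and depends least on stimulation. It had 702, 659 and 650 normalized counts in oil and 704, 586 and 624 in tamoxifen. The 6 values lay close together, and the groups overlapped through tamoxifen 1. The log2 difference was -0.07 (SE 0.15, adjusted p = 0.809), -0.15 without tamoxifen 1 and -0.53 after a correction of each library for GC content. Only 43 tested genes lay within 2 percentage points of its GC content, so values of Jund after this correction are less certain.

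Atf3 (chr1:191170296-191218039, minus strand) encodes a stress-induced bZIP protein that can join AP-1 dimers. It had 1 read in oil 3 and 0 in the other 5 libraries. A count of 0 allows up to 3 reads, or 2.69 to 3.83 normalized counts according to the library, and this limit covers counting error only. Atf3 was therefore not detectable at this depth in 5 libraries, and no difference between the groups could be measured.

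**Figure D1:**
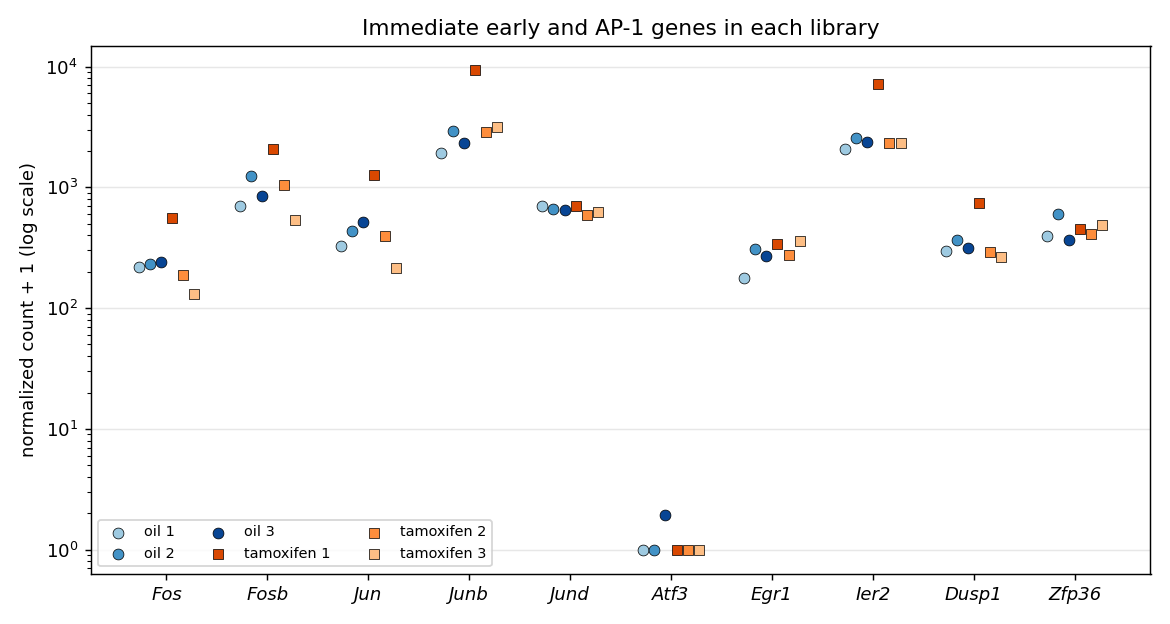
Normalized count + 1 of each of the 10 members (log scale) in the 3 oil libraries (blue circles) and the 3 tamoxifen libraries (orange squares), 1 point per library. Tamoxifen 1 (dark orange) sits above the other 5 libraries for Fos, Fosb, Jun, Junb, Ier2 and Dusp1, while for Jund, Egr1 and Zfp36 it does not stand apart and Atf3 lies at or next to 0.

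Egr1 (chr18:34859823-34864984, plus strand) encodes a zinc finger transcription factor induced through serum response factor and its ETS partners. It had 177, 311 and 268 normalized counts in oil and 336, 274 and 358 in tamoxifen. Its highest library was tamoxifen 3, not tamoxifen 1, and its lowest was oil 1. The group means were 252 ± 68.3 in oil and 323 ± 43.8 in tamoxifen (SD, n = 3 each). The log2 difference was 0.39 (SE 0.26, 95% interval -0.24 to 1.01, adjusted p = 0.666) and 0.35 without tamoxifen 1 (SE 0.23, adjusted p = 0.574). It was 0.15 without oil 1 and 0.13 after a correction for GC content.

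Ier2 (chr8:84661331-84662852, minus strand) encodes a small nuclear protein of the immediate early response. Its normalized counts were 2057, 2577 and 2391 in oil and 7202, 2321 and 2333 in tamoxifen. Tamoxifen 1 was 2.79 times the highest other library, whereas tamoxifen 2 and 3 were nearly equal and lay inside the oil range. The group means were 2342 ± 263 in oil and 3952 ± 2814 in tamoxifen (SD, n = 3 each). Its log2 difference was 0.54 (SE 0.45, adjusted p = 0.666) with all libraries and -0.0027 without tamoxifen 1 (SE 0.099, adjusted p = 0.996). GC correction gave 0.18.

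Dusp1 (chr17:26505590-26562128, minus strand) encodes the nuclear MAP kinase phosphatase of this wave. It had 296, 363 and 311 normalized counts in oil and 735, 291 and 263 in tamoxifen. Tamoxifen 1 was again alone above the oil libraries, and tamoxifen 2 and 3 were below them. The group means were 323 ± 34.8 in oil and 429.6 ± 265 in tamoxifen (SD, n = 3 each). The log2 difference was 0.25 (SE 0.40, adjusted p = 0.761), against -0.22 without tamoxifen 1 (SE 0.14, adjusted p = 0.549) and 0.063 after GC correction. The annotated gene overlaps Ergic1 on the opposite strand, which had 1414 to 1622 normalized counts.

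Zfp36 (chr7:28376784-28380253, minus strand) had 392, 598 and 369 normalized counts in oil and 449, 407 and 490 in tamoxifen. Its highest library was oil 2, and the tamoxifen values lay inside the oil range. The group means were 453 ± 126 in oil and 449 ± 41.5 in tamoxifen (SD, n = 3 each). Its log2 difference was 0.02 (SE 0.23, 95% interval -0.54 to 0.57, adjusted p = 0.974), and 0.015 without tamoxifen 1.

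Of the 9 tested members, 0 passed an adjusted p of 0.05 in limma, and 0 had an unadjusted p under 0.05. Over all 12298 genes, 0 passed (0% called), with 550 at an unadjusted p under 0.05. On the reads recovered from the values, edgeR called 0 members and 0 of all genes, and DESeq2 called 0 members and 71 of all genes. The median log2 difference of the tested members was 0.21, against -0.017 over all tested genes, and 8 of 9 were positive. Without tamoxifen 1 the median was -0.15 against -0.021, and 3 of 9 were positive. Again 0 members passed, where 0.333% of all genes were called. After GC correction the median was 0.0050 against -0.0031, with 5 of 9 positive, and with library weights it was -0.12 against -0.031, with 2 of 9 positive. With 3 libraries against 3, the smallest two-sided p of an exact permutation test is 0.1.

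The groups overlapped for each of the 9 tested members, whereas 7.86% of all tested genes had every tamoxifen library above every oil library and 9.69% had every one below. Once tamoxifen 1 was left out, 3 members (Fos, Jund and Dusp1) had tamoxifen 2 and 3 below all oil libraries, where 16.8% of all genes did. None of the 9 lay above, where 12.6% of all genes did. When libraries were weighted by quality in limma, which gave tamoxifen 1 a weight of 0.0377, Fos alone of the 9 passed, with a log2 difference of -0.70 and an adjusted p of 0.0237. In that fit 2.54% of all genes were called in the same direction.

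**Figure D2:**
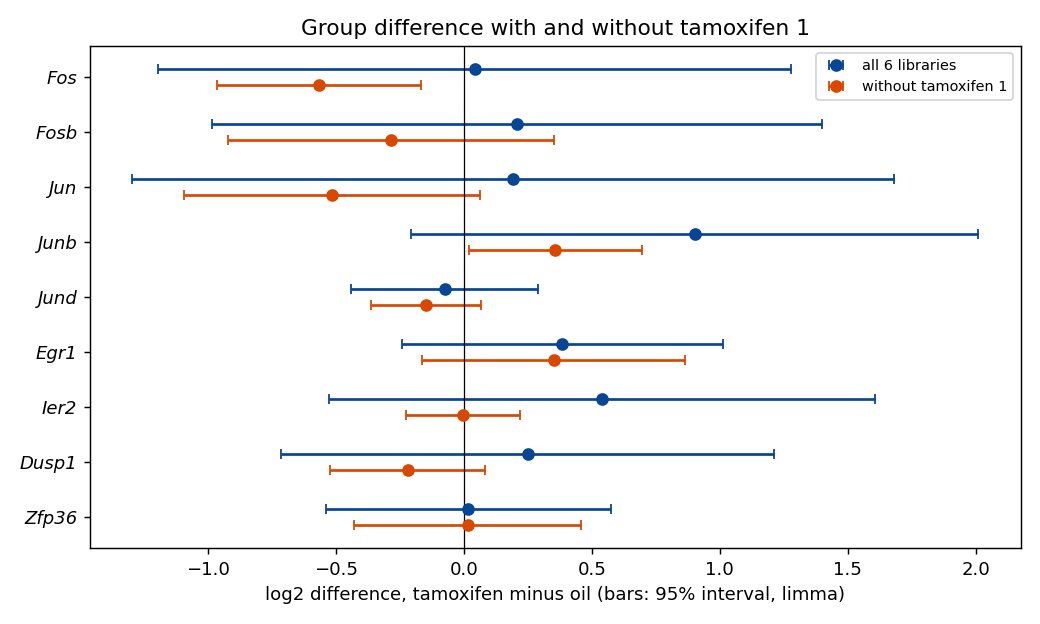
Log2 difference of each tested member, tamoxifen minus oil, with its 95% interval from limma, for all 6 libraries (blue) and without tamoxifen 1 (orange). Fos moves from 0.04 to -0.57, Jun from 0.19 to -0.51 and Ier2 from 0.54 to -0.0027, while Egr1, Jund and Zfp36 stay near their place.

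The values of these genes were widely spread within the groups. As the distance between the highest and lowest library on the log2 scale, the median range of the 9 tested members was 0.61 among the oil libraries, against 0.22 over all tested genes, and 7 of 9 members were above that value. Among the tamoxifen libraries it was 1.63 against 0.85, with 6 of 9 above. Between tamoxifen 2 and 3 it was 0.27 against 0.16, with 5 of 9 above. The standard errors of the members had a median of 0.45 against 0.28, with 6 of 9 above that value and Jund, Zfp36 and Egr1 below it. Ranges were compared as a description and were not tested.

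The members did not share one pattern of spread. Fos had the second narrowest range in oil, with a coefficient of variation of 4.63%, and one of the widest in tamoxifen, at 79.4%. Jun (22.4% and 90.1%), Junb (21.5% and 71.4%), Ier2 (11.3% and 71.2%), Dusp1 (10.8% and 61.6%) and Fosb (30.03% and 64.8%) likewise had larger coefficients in tamoxifen. For 3 of these genes the larger spread rests on tamoxifen 1, since between tamoxifen 2 and 3 the log2 range was 0.0080 for Ier2, 0.14 for Junb and 0.15 for Dusp1, below their oil ranges of 0.32, 0.61 and 0.29. For Fos (0.53), Jun (0.88) and Fosb (0.97) it was above the oil ranges of 0.13, 0.66 and 0.83. Jund had small coefficients in both groups, at 4.18% and 9.46%, but its log2 range in tamoxifen went from 0.26 to 1.05 after GC correction, and that in oil from 0.11 to 0.21. Egr1 (27.1% and 13.6%) and Zfp36 (27.9% and 9.25%) varied more in oil. In oil, Egr1, Fosb, Junb, Ier2 and Dusp1 were lowest in oil 1 and highest in oil 2. Fos and Jun were lowest in oil 1 and highest in oil 3 within that group.

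Tamoxifen 1 was the highest library for 7 of the 9 tested members, as it was for 41.1% of all tested genes. Relative to the mean of the other 5 libraries, Junb was 3.54 times higher in it, Jun 3.38, Ier2 3.08, Fos 2.74, Dusp1 2.41 and Fosb 2.38. Egr1 (1.21), Jund (1.09) and Zfp36 (0.994) were near that mean. Tamoxifen 3 was the lowest library for 4 of 9 members, Fos, Fosb, Jun and Dusp1, and for 17.2% of all tested genes.

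**Figure D3:**
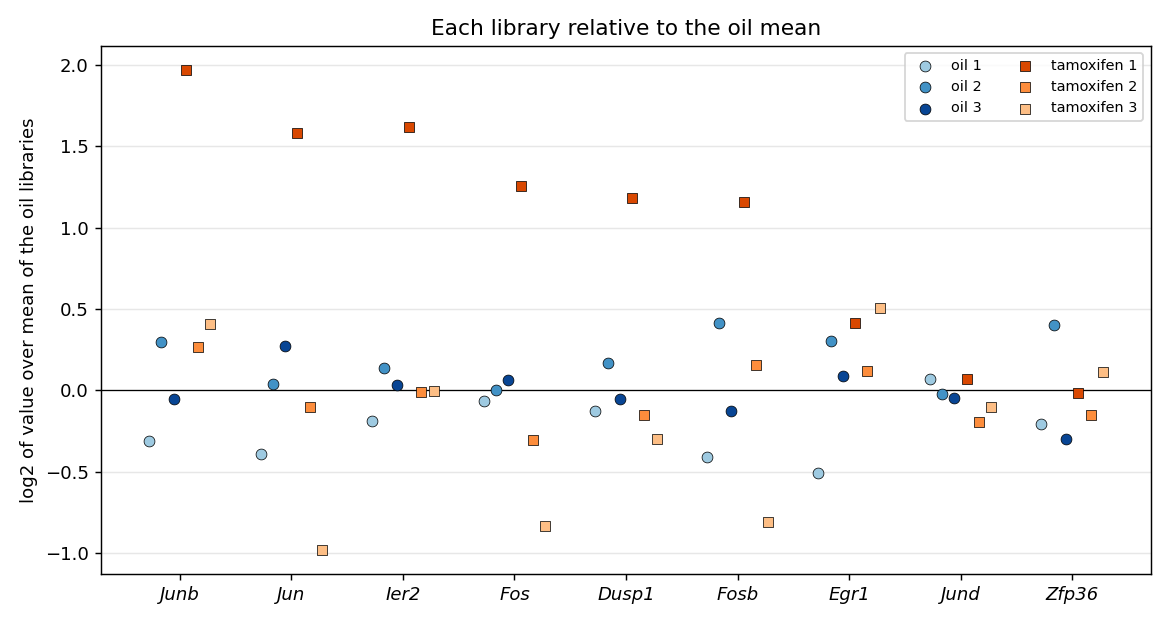
Log2 of each library's value over the mean of the oil libraries for the 9 tested members, ordered by the fold of tamoxifen 1 over the mean of the other 5. The dark orange squares of tamoxifen 1 stand apart for the first 6 genes and not for Egr1, Jund and Zfp36, and tamoxifen 3 is lowest for Jun, Fos, Dusp1 and Fosb.

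GC content moved with the deviation of tamoxifen 1, so each member was set beside tested genes within 2 percentage points of its own GC content. The deviation of Fos was 1.49 on the log2 scale, where the median of its band was 0.26, and Jun deviated by 1.81 against 0.61. They stood at the percentiles 97.9 and 98.5 of their bands. Dusp1 (1.27 against 0.55), Junb (1.85 against 1.15), Fosb (1.31 against 0.66) and Ier2 (1.63 against 1.01) stood between the percentiles 90.0 and 92.5. Zfp36 (0.015 against 0.48), Egr1 (0.31 against 0.77) and Jund (0.13 against 1.52) were below their bands' medians, with Jund at the percentile 2.33 of its band. That band held only 43 genes, against 355 (Junb) to 2580 (Fos) in the bands of the other members, so the percentile of Jund is coarse.

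A deviation above 1 was thus found for 6 of 9 members and for 12.8% of all tested genes. After each library was corrected for GC content, 2 of 9 members (Fos at 1.36 and Jun at 1.31) and 7.83% of all genes had a deviation above 1. The corrected deviations were 0.81 for Dusp1, 0.77 for Fosb, 0.75 for Junb, 0.64 for Ier2, -0.37 for Egr1, -0.38 for Zfp36 and -1.12 for Jund. Tamoxifen 1 then was the highest library for 6 of 9 members, against 42.0% of all genes. The corrected range within tamoxifen had a median of 1.05 over the members, against 0.59 over all genes.

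**Figure D4:**
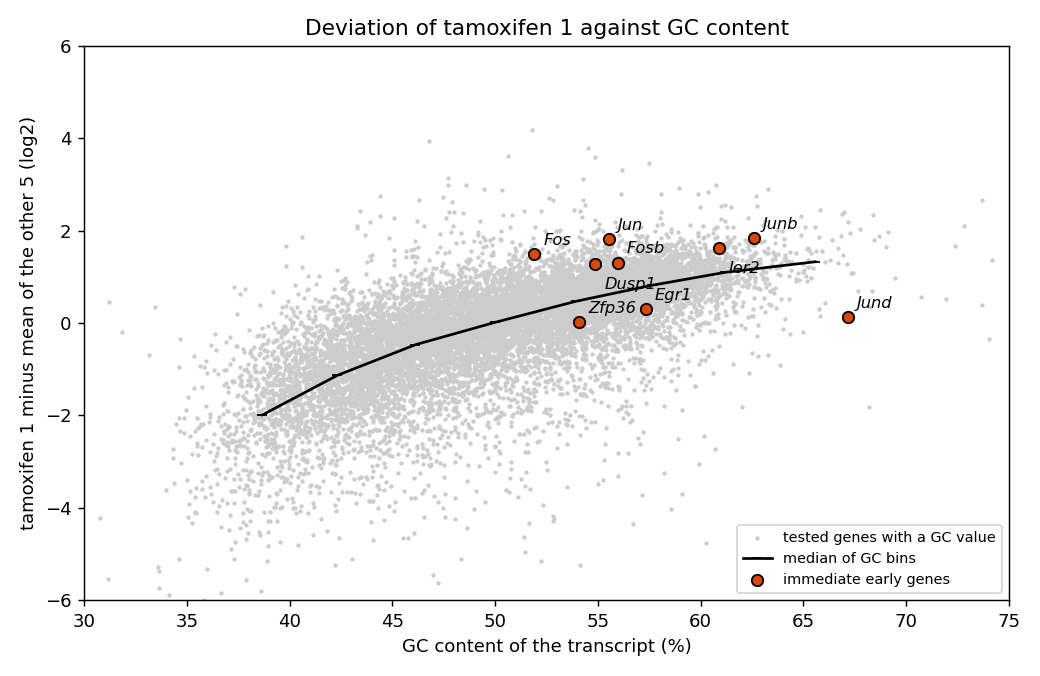
Deviation of tamoxifen 1 from the mean of the other 5 libraries (log2) against the GC content of the transcript in percent, for tested genes (grey; 17 of 12134 genes with a GC value lie outside the axes) and the 9 members (orange), with the median of GC bins (black line). The line climbs from -1.99 to 1.33, and Fos and Jun lie furthest above it while Jund, Egr1 and Zfp36 lie below.

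Other genes of the same network were read from lists of their roles. Of 8 AP-1 subunits outside the members, 4 were tested and 0 passed in either direction (median log2 difference 0.13). Fosl2, which encodes a FOS family subunit, had 162, 134 and 148 normalized counts in oil and 285, 202 and 248 in tamoxifen, and the groups did not overlap (log2 difference 0.72, SE 0.21, adjusted p = 0.666). Without tamoxifen 1 its difference was 0.60 (adjusted p = 0.189). Batf had a difference of 0.60 with overlapping groups (0.46 without tamoxifen 1), and Atf7 had -0.50, which became 0.13 without tamoxifen 1. Fosl1, Batf2, Batf3 and Jdp2 had fewer than 3 normalized counts in every library.

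Of 25 other immediate early genes, 16 were tested and 0 passed (median 0.11, and 0.0031 without tamoxifen 1). Tamoxifen 1 was the highest library for 9 of the 16, as it was for 41.1% of all tested genes. Klf2, which encodes a zinc finger factor of quiescent cells, had 87.1, 30.9 and 26.9 normalized counts in oil and 12.8, 11.1 and 10.003 in tamoxifen, so the groups were separate (log2 difference -1.81, SE 0.49, adjusted p = 0.666). The difference of Klf2 was -1.89 without tamoxifen 1 (adjusted p = 0.181). Gadd45b, a stress-inducible gene, had a difference of 0.78 with separate groups (0.70 without tamoxifen 1). Maff, a small MAF factor, had 0.56 with overlapping groups, which became 0.21 without tamoxifen 1. Ier5, a relative of Ier2 chosen after its values were seen, had 1391, 1299 and 1370 normalized counts in oil and 4025, 1247 and 1313 in tamoxifen. Like Ier2, it was high in tamoxifen 1 and within or just below the oil range in tamoxifen 2 and 3. Other genes of the list went the other way, since Btg1, Btg2, Klf6 and Klf10 were lowest in tamoxifen 1.

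Of 8 relatives of Dusp1 and Zfp36, 6 were tested and 0 passed, and all 6 had a positive difference (median 0.32, and 0.30 without tamoxifen 1). Dusp2, another nuclear MAP kinase phosphatase, had 89.8, 96.5 and 124 normalized counts in oil and 362, 150 and 207 in tamoxifen. The groups did not overlap (log2 difference 1.12, SE 0.36, adjusted p = 0.666), and the difference was 0.77 without tamoxifen 1 (adjusted p = 0.189). Zfp36l2, an mRNA decay factor of the ZFP36 family, had 4859, 5423 and 4328 in oil and 9985, 5859 and 9121 in tamoxifen, also without overlap (0.74, SE 0.23, adjusted p = 0.666, and 0.59 without tamoxifen 1). Dusp5 had a difference of 0.39 with overlapping groups (0.23 without tamoxifen 1).

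Of 16 kinases and factors upstream, 16 were tested and 0 passed (median -0.19, and -0.038 without tamoxifen 1). Elk3, an ETS partner of serum response factor, had a log2 difference of 0.79, Map2k4, a kinase that activates JNK, had -0.76, and Creb1, which binds cAMP response elements, had -0.74. Without tamoxifen 1 these were 0.43, -0.13 and -0.048. Of 10 heat shock genes, 9 were tested and 0 passed (median 0.12). Hspa1a, an inducible HSP70 gene, had 146, 342 and 691 normalized counts in oil and 106, 54.6 and 1.82 in tamoxifen, with separate groups (log2 difference -3.67, SE 1.37, adjusted p = 0.666). Its near-identical copy Hspa1b had 1402, 3052 and 4372 in oil and 1994, 740 and 206 in tamoxifen (-1.98, SE 0.84, adjusted p = 0.666), and reads of this pair may have been split between them. Without tamoxifen 1 these differences were -4.71 and -2.76 (adjusted p = 0.133 and 0.0839). Dnaja1, a partner of HSP70, had -0.70, which turned to 0.038 without tamoxifen 1, since only that library was far below the others. Unlike Fos and Jun, which were highest in tamoxifen 1, both HSP70 genes were highest in oil 3, though all 4 were lowest in tamoxifen 3.

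Calls in these lists came from 2 alternatives. With library weights in limma, which called 3.82% of all genes as higher and 2.54% as lower, the calls were Fosl2 (log2 difference 0.71), Dusp2 (0.93), Zfp36l2 (0.74) and Mkl2 (0.43) as higher, and Klf2 (-1.85), Rhob (-0.80), Mapk3 (-0.32), Hspa1a (-5.87) and Hspa1b (-3.28) as lower. DESeq2 without tamoxifen 1, which called 0.44% of all genes as lower, called Klf2 (-2.19) and Rhob (-0.81) as lower. In limma with all libraries, Rhob (-0.42) and Mapk3 (-0.17) had smaller differences and overlapping groups (adjusted p = 0.666 each). Tamoxifen 1 was the highest library for both.

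Tested genes other than the members were ranked by the likeness of their log2 profile to the mean profile of the 10 members over the 6 libraries. The mean included Atf3, which had only 1 read, in oil 3, and could not be measured. The highest Pearson correlations were those of Dcaf10 (0.998), Rnf149 (0.996), Usp4 (0.996), Ccdc84 (0.996) and Wdr62 (0.995). The mean member profile was 0.80 in tamoxifen 1 and between -0.34 and 0.052 in the other 5 libraries. Usp4 reached this likeness with a deviation of 0.14 in tamoxifen 1 and Ccdc84 with one of 0.95, so likeness of shape came with different sizes.

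Markers of other cell types were counted beside these values, since bulk RNA-seq cannot tell fewer cells of a type from less RNA per cell. The summed level of 10 macrophage markers was 108 to 263 normalized counts in oil and 291 to 404 in tamoxifen, and each of the 8 tested had a positive difference (median 1.10). The summed neutrophil markers were at 4.64 to 8.68 and 22.7 to 45.5, and NK cell markers at 59.8 to 159 and 193 to 662, the latter mostly from 1 gene, with 2 of 4 defining genes at 0 in all libraries. The 6 T cell markers summed to 0 in oil and to at most 4.04 in tamoxifen, with 3 at 0 throughout. B cell markers stayed between 4.64 and 24.3 and endothelial markers between 5.79 and 14.6. Erythroid markers summed to 46961 to 66188 in oil and 51970 to 82717 in tamoxifen. Megakaryocyte and platelet markers summed to 165 to 201.2 and 193 to 638, mostly from 1 gene, with 1 of 5 at 0 in all libraries. The macrophage, neutrophil and NK cell sums were higher in all 3 tamoxifen libraries than in any oil library. The erythroid (82717), megakaryocyte and platelet (638) and B cell (24.3) sums were highest in tamoxifen 1, as were 7 of the 9 tested members. The part of other cells in the members' values was not tested.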

How the data were processed

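Bulk RNA-seq was measured in 3 oil and 3 tamoxifen libraries, grouped by their labels. The authors analyzed the reads with STAR and DESeq2, and the submitters' processing notes name the mm10 build. Library preparation is described as a DNA Flex tagmentation kit per the labels. Tool versions, annotation and strand setting are not given in the sources used here. The values the authors deposited are a normalized signal, read counts scaled by a size factor that differs between libraries. Over all 6, 100% of values above 0 were whole multiples (tolerance 0.05) of a step of 0.898 to 1.28, which recovered 19172471 to 23785143 reads. In tamoxifen 2 the step was 1.01, near that of unscaled counts. As the reads carry no molecular identifiers, limits from counts cover counting error only. Of 55450 rows, 1832 had no gene name (0.0400% to 0.0614% of reads) and were left out. Symbols of 51842 named rows matched GENCODE vM21 (GRCm38), the source of coordinates, GC content and transcript features.

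Differences were tested with limma 3.58.1 (R 4.3.3, lmFit and eBayes with trend) on log2(value + 1), which understates changes of low genes, for genes that reached a value of 10 in 3 libraries or more. Benjamini-Hochberg adjustment of the two-sided p-values covered all 12298 genes, with a threshold of 0.05. The fit was tested on simulated data with known changes. Each library came from another mouse, and the replicate numbers of the groups did not pair the libraries.

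The members, the lists and the rule for named genes were chosen with earlier results of these data known. Named were all 10 members, from each list the genes called or otherwise up to 3 with the largest log2 difference, Kit, Ptprc, Usp18 and the 5 genes with the profile most like the members'. Ier5 and the genes set beside it were named outside this rule. Alternatives were edgeR 4.0.16, DESeq2 1.42.0 and limma voom on recovered reads, pseudocounts of 0.5 and 5, scaling by TMM, no filter, at least 1 CPM in 3 libraries, a replicate block, GC correction (loess, span 0.3) alone and with the block, library weights, and each library left out. Added after the data were seen were edgeR and DESeq2 without tamoxifen 1. Intervals are 95% intervals from limma. Promoters of Egr1 and Ier2 are not analysed here.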

Additional observations from a re-analysis of the deposited data

How the results depend on the processing

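Over 20 alternatives, 18 of them planned and 2 added after the data were seen, 150 of 180 log2 differences of the members kept their direction and their side of the threshold, and 30 changed sign. Junb, Egr1 and Jund kept their sign in all 20, with sizes of 0.34 to 1.21, 0.13 to 0.56 and -0.53 to -0.016. The number of all genes past the threshold was 0 in the analysis of all libraries with limma, 71 with DESeq2, 2 after GC correction and 782 with library weights. It ranged from 0 to 41 when 1 library was left out, with 41 only without tamoxifen 1, and was 46 with edgeR and 231 with DESeq2 without that library. The number of members past the threshold was 1 with library weights, Fos, and 0 in the other alternatives.

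When 1 library was left out, Fos ranged from -0.57 to 0.48, Fosb from -0.29 to 0.70, Jun from -0.51 to 0.76, Ier2 from -0.0027 to 0.81, Dusp1 from -0.22 to 0.52, Zfp36 from -0.11 to 0.24, Junb from 0.36 to 1.21, Egr1 from 0.15 to 0.56 and Jund from -0.15 to -0.016. Without tamoxifen 1, edgeR gave -0.53 for Fos, -0.23 for Fosb, -0.46 for Jun and -0.20 for Dusp1, and DESeq2 gave -0.54, -0.24, -0.47 and -0.21. Library weights gave -0.70 for Fos, -0.64 for Fosb, -0.75 for Jun, -0.016 for Ier2, -0.28 for Dusp1 and -0.0038 for Zfp36. GC correction, with or without the replicate block, gave -0.020 for Fos, -0.0013 for Jun, -0.15 for Zfp36, 0.0050 for Fosb, 0.18 for Ier2, 0.063 for Dusp1, 0.50 for Junb, 0.13 for Egr1 and -0.53 for Jund, the last then larger in size than Junb. Zfp36 was -0.014 with DESeq2 and -0.0074 with TMM scaling. The cause of these changes of sign was not tested.

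Of 36 ranges within groups, 5 moved by more than the standard deviation of the log2 values in that group, all under GC correction: in tamoxifen Junb to 0.59, Jund to 1.05, Egr1 to 0.74 and Zfp36 to 0.48, and in oil Jund to 0.21. That of Ier2 in tamoxifen went from 1.63 to 0.70, just within its standard deviation. With the replicate block 0 genes were called, and the difference of Junb stayed 0.90 (limma adjusted p = 0.731). Same-numbered libraries deviated with correlations of -0.024, 0.061 and -0.15. Of the other lists, library weights called 1 of 4 AP-1 subunits, 2 of 16 immediate early genes, 2 of 6 phosphatases and ZFP36 relatives, 2 of 16 upstream genes and 2 of 9 heat shock genes, where 782 of 12298 genes were called. DESeq2 without tamoxifen 1 called 2 of 16 immediate early genes, where 231 of all genes were called. With 3 libraries a group, intervals of the members were wide (Ier2 from -0.53 to 1.61). Without tamoxifen 1 they were narrower (Ier2 from -0.23 to 0.22). Atf3 could not be measured at this depth.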
